A study of Mus musculus with 10 samples.

Results

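The Igkv5 family is a group of related V segments of the mouse immunoglobulin kappa light chain locus (Igk). Its members here were the 5 segments Igkv5-37, Igkv5-39, Igkv5-43, Igkv5-45 and Igkv5-48, listed in the table as IGKV5-37, IGKV5-39, IGKV5-43, IGKV5-45 and IGKV5-48 and found by the name of the V call with the allele removed. Counts were present for 4 of the 5, together 12345 of 161780 counts (7.63%) and 1689 of 23998 distinct clonotypes, in a repertoire of 114 V segments. Clonotypes were told apart by V segment, J segment and the nucleotide sequence of the joint, the CDR3. The data came from small pre-B cells that were sorted from bone marrow of C57BL/6 mice aged 6 to 12 weeks. There were 5 samples labelled WT and 5 labelled rsCBE, which the design text writes with a delta and does not spell out, and no treatment was named. The table holds kappa joins only, so the labelled cell type could not be checked against marker genes. Nothing in the labels ties each sample to its own animal, and p-values therefore measure the spread between these samples.

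A kappa gene is assembled when the RAG recombinase cuts beside one V and one J segment and the ends are joined, usually with a few bases trimmed from each end and, in kappa, few bases added between them. J3 is a pseudogene in the mouse. An allele that has already joined can be rearranged again by an upstream V segment and a J segment farther downstream, which replaces the first joint. This is the basis of receptor editing, the subject of the study's title, and J5 is the last J segment of the series. V segments that face the opposite way from the J segments join by inversion and keep the DNA between them on the chromosome.

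In the GENCODE M21 annotation of the mouse build GRCm38, the 5 members lie on the reverse strand of chromosome 6 and are annotated as V genes. The J segments lie on the forward strand. Igkv5-37 is nearest to them, at chr6:69963312-69963873 and 758.7 kb from J1. Igkv5-39 (chr6:69900424-69900977) is 821.6 kb away, Igkv5-43 (chr6:69823355-69823943) 898.6 kb, Igkv5-45 (chr6:69775750-69776344) 946.2 kb and Igkv5-48 (chr6:69726573-69727138) 995.4 kb. The members are separated by 47.0 to 76.5 kb and span 237 kb in all, with segments of other families between them. A pseudogene of the family, Igkv5-40-1, had 0 counts.

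The V segments contribute the first bases of the CDR3, and these ends show how far the members can be told apart in a joint. They were read from the GENCODE transcripts, 23 bases each, and capitals mark the bases that differ from Igkv5-43.
Igkv5-37: cTTcaAGgtTacagcACAcctTC
Igkv5-39: caaAaTGgtCacagctTTcctcC
Igkv5-43: caacagagtaacagctggcctca
Igkv5-45: caacagagtaacagctggcctca
Igkv5-48: caacaAagtaaTagctggccAAC
Igkv5-43 and Igkv5-45 are identical there, whereas Igkv5-39 differs from Igkv5-43 at 7 bases, Igkv5-48 at 5 and Igkv5-37 at 10.

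The whole V regions of Igkv5-43 and Igkv5-45 are shown because all reads of the pair were listed under one name. Shown are the 287 bases that all annotated V exons of the members cover, from the first base after the leader, and capitals mark the bases that differ.
Igkv5-43: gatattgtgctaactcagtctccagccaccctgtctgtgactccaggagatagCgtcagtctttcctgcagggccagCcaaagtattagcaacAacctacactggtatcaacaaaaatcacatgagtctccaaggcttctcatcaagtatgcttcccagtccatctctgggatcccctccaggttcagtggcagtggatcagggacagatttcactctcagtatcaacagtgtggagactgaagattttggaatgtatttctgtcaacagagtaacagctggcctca
Igkv5-45: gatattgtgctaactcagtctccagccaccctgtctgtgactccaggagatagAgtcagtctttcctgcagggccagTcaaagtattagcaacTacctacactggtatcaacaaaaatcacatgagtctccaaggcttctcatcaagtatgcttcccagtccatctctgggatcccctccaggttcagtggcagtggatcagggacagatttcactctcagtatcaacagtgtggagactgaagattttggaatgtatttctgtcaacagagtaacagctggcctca
They differ by C54A, C78T and A94T, counted from 1 at the first base after the leader, with the base of Igkv5-43 first, and are 99.0% identical. The other pairs of members are 81.5 to 91.6% identical. Igkv5-45 had 0 of 161780 counts. For counts listed under that name, this allows a share of up to 0.00185%, and 0.0125 to 0.0965% in single samples. How reads that match both segments were assigned is not given in the sources used here. Counts listed under Igkv5-43 may thus include Igkv5-45, and the pair cannot be told apart below.

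The joints that recurred most were built from these germline ends and from the J ends, which are gtggacg for J1, tgtacacg for J2, attcacg for J4 and gctcacg for J5. Shown are 6 of the 16 family joints found in all 10 samples, and capitals mark the bases after the longest match to the germline V end.
Igkv5-39 with J2, in frame: caaaatggtcacagctttccGTACACG
Igkv5-39 with J5, in frame: caaaatggtcacagctttccGCTCACG
Igkv5-43 with J5, in frame: caacagagtaacagctggccGCTCACG
Igkv5-48 with J5, in frame: caacaaagtaatagctggccGCTCACG
Igkv5-43 with J5, out of frame: caacagagtaacagctggcctcaTCACG
Igkv5-43 with J5, out of frame and shorter: caacagagtaacagctggcctcaCG
The 4 in-frame joints have 27 bases and the same form, with 20 bases of the V segment and 7 of the J segment. In the out-of-frame joints of Igkv5-43 all 23 bases of the V end are present, in a CDR3 of 28 or 25 bases. None of the 6 has added bases, and of all 16 such joints 15 have none.

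The members were used unevenly. Igkv5-43 was the most used, with 3.15% ± 1.48 of all counts in the 5 WT samples and 3.54% ± 1.30 in the 5 rsCBE samples (mean ± SD), and ranked 4th of 114 V segments by mean share over all samples. Igkv5-39 followed at 2.65% ± 2.07 and 1.74% ± 0.741 (rank 11), and Igkv5-48 at 1.32% ± 0.378 and 1.21% ± 0.0852 (rank 28). Igkv5-37 was rare, at 0.0722% ± 0.0640 and 0.0809% ± 0.0259 (rank 96), with 131 counts in all. The ranks differed between the 2 sets of samples described below as batches: Igkv5-43 was at rank 2 in batch 1 and 8 in batch 2, Igkv5-39 at 6 and 22, and Igkv5-48 at 35 and 24. A share is of transcripts, so more rearranged cells and more transcript per cell cannot be told apart. Total counts per sample ran from 3109 to 24083. Counts are not known to be single molecules, so the limits given above for a count of 0 account for counting error alone.

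In WT replicates 1 to 5, Igkv5-43 held 4.61, 4.90, 2.30, 1.83 and 2.10% of the counts. In rsCBE replicates 1 to 5 it held 4.61, 5.26, 2.80, 2.43 and 2.58%. The groups overlapped, and in both the first 2 replicates were the high ones. The log2 fold change of the share, rsCBE against WT, was 0.16 ± 0.34 (SE, adjusted p = 0.992, edgeR quasi-likelihood test with Benjamini-Hochberg adjustment).

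Igkv5-39 held 6.26, 2.35, 1.36, 2.09 and 1.20% in WT replicates 1 to 5. In rsCBE it held 2.55, 2.55, 1.16, 1.31 and 1.14%. WT replicate 1 stood above all the others, and the remaining 9 samples of the 2 groups overlapped. The log2 fold change was -0.61 ± 0.45 (adjusted p = 0.973, edgeR), and without WT replicate 1 it was 0.00206.

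Igkv5-48 held 1.22, 1.30, 1.64, 1.67 and 0.742% in WT and 1.25, 1.25, 1.23, 1.27 and 1.06% in rsCBE, with a log2 fold change of -0.11 ± 0.21 (adjusted p = 0.992, edgeR). Igkv5-37 lay between 0.0218 and 0.181% in WT samples and between 0.0515 and 0.107% in rsCBE, with a log2 fold change of 0.07 ± 0.52 (adjusted p = 0.992, edgeR). None of the 4 tested members passed the test for a change in share with the genotype. Of all 98 V segments tested, 0 were called at an adjusted p under 0.05 (0%), 7 had an unadjusted p under 0.05, and DESeq2 also called 0, with 8 at an unadjusted p under 0.05. Among the members the unadjusted count was 0 of 4. With batch as a term edgeR called 2 of 98 segments (2.04%), neither of the family, and 17 had an unadjusted p under 0.05. Of these 17, 1 was a member, Igkv5-39, at -0.51 ± 0.21 (adjusted p = 0.217, edgeR).

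**Figure D1:**
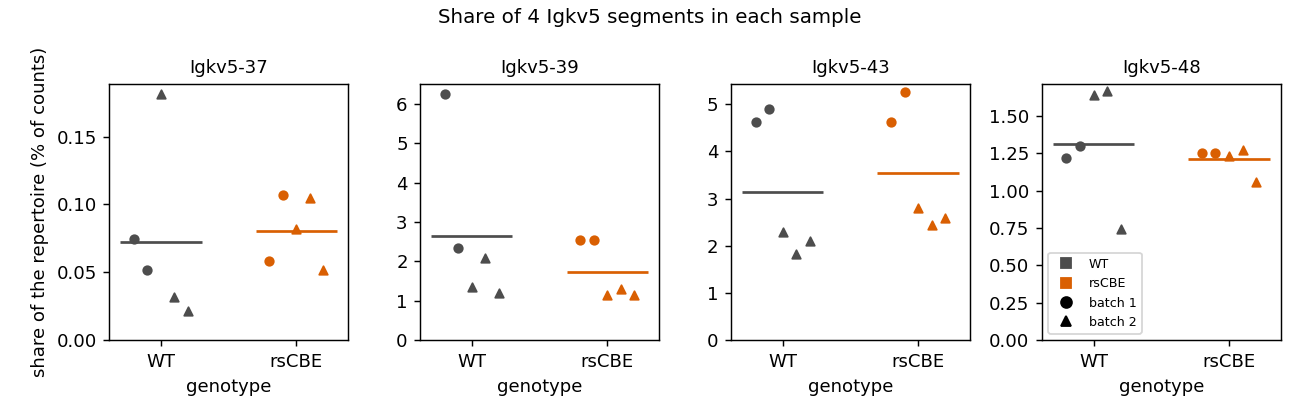
Share of all counts (vertical axis, percent) held by 4 Igkv5 segments in each of 5 WT and 5 rsCBE samples, with a line at the group mean. Circles are replicates 1 and 2 (batch 1) and triangles replicates 3 to 5 (batch 2); Igkv5-43 is between 4.61 and 5.26% in all circles and between 1.83 and 2.80% in all triangles.

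The samples fell into 2 sets by how they were deposited, and the share of the 2 main members differed between the sets. Replicates 1 and 2 of each genotype were given as 1 library each, called batch 1 here, and replicates 3 to 5 as 2 parts each, called batch 2. The labels name no batch, and what differed between the sets is not given in the sources used here. With the genotype in the model, Igkv5-43 was lower in batch 2 by a log2 fold change of -1.05 ± 0.10 (adjusted p = 1.35e-07, edgeR), from a mean of 4.84 to 2.34%. Igkv5-39 was lower by -1.30 ± 0.21 (adjusted p = 5.31e-05, edgeR), from 3.43 to 1.38%, and without WT replicate 1 by -0.93. Igkv5-48 was at 1.26 and 1.27%, with a log2 fold change of 0.000636 ± 0.20 (adjusted p = 0.997, edgeR), and Igkv5-37 at 0.0729 and 0.0790% (0.26 ± 0.47, adjusted p = 0.689). Lower shares in batch 2 were called for 26 of 100 V segments (26.0%) and higher shares for 31 (31.0%), so such a difference was common among all segments. Counting each clonotype once, the log2 fold change was -0.54 for Igkv5-43 and -0.58 for Igkv5-39 (adjusted p = 9.24e-06 and 0.000154, edgeR), where lower shares were called for 26 of 90 segments (28.9%). Both batches hold both genotypes, and the share of Igkv5-43 differed between genotypes by 0.182 percentage points in batch 1 and 0.527 in batch 2. For Igkv5-39 the difference was -1.75 percentage points in batch 1, which holds WT replicate 1, and -0.347 in batch 2.

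In WT replicate 1, where the share of Igkv5-39 was high, few joints held most of its counts. Of its 1425 counts there, 603 (42.3%) were the 27-base in-frame joint with J2 printed above, which made up 2.65% of that whole sample. In the other WT samples that joint held 0.341, 0.239, 0.322 and 0.131% of the counts, and in rsCBE 0.287, 0.270, 0.0986, 0.148 and 0.137%. The 3 most abundant joints held 68.4% of the segment's counts in WT replicate 1 and 31.6 to 43.6% in the other samples. With the top 3 joints of each sample left out, WT replicate 1 was still the highest, at 1.98% against 0.684 to 1.61%. The joint with J5 of the same form held 294 counts in that sample, 1.29% of the total.

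Igkv5-43 had a lower in-frame share than the remaining V segments together. A joint was counted as in-frame where its CDR3 length was a multiple of 3 and it held no stop codon. Of the Igkv5-43 counts, 63.7, 45.5, 51.9, 33.3 and 37.0% were in-frame in WT replicates 1 to 5, and 46.2, 43.8, 38.6, 41.6 and 29.9% in rsCBE. In the V segments outside the family together, called all other V segments in the values and plots here, 66.0 to 76.1% were in-frame in WT and 62.1 to 71.2% in rsCBE. The tests compare a segment with every segment but itself, the other members included, so their differences are not exactly those between the printed means. Igkv5-43 was below the others in all 10 samples, by 25.6 percentage points on average (two-sided exact permutation test over sign changes, p = 0.00195, which is the smallest that 10 samples can give, adjusted p = 0.0117). Lower in-frame shares were called for 13 of 66 V segments (19.7%). With each clonotype counted once, Igkv5-43 was 14.4 percentage points lower (exact permutation test, adjusted p = 0.0117), where lower shares were called for 9 of 66 segments (13.6%).

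Igkv5-39 and Igkv5-48 were closer to the rest. Igkv5-39 was 5.44 percentage points above every other segment together (exact permutation test, adjusted p = 0.0665) and above them in 7 of 10 samples. With each clonotype counted once it was 10.6 percentage points above (adjusted p = 0.0117), where higher shares were called for 14 of 66 segments (21.2%). With the counts as deposited, higher shares were called for 12 of 66 (18.2%). Igkv5-48 was 5.95 percentage points below (exact permutation test, adjusted p = 0.0859), and without WT replicate 4, which has 52 counts of this segment, 7.68 below (adjusted p = 0.0276). Without that sample lower shares were called for 16 of 66 segments (24.2%). Igkv5-48 was 1.17 percentage points below the rest with each clonotype counted once (exact permutation test, adjusted p = 0.845). The mean in-frame share was 73.2% in Igkv5-39, 62.1% in Igkv5-48 and 43.1% in Igkv5-43. Igkv5-37, with 1 to 25 counts a sample, ran from 0 to 100% and was not tested, and the members were not tested against each other.

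**Figure D2:**
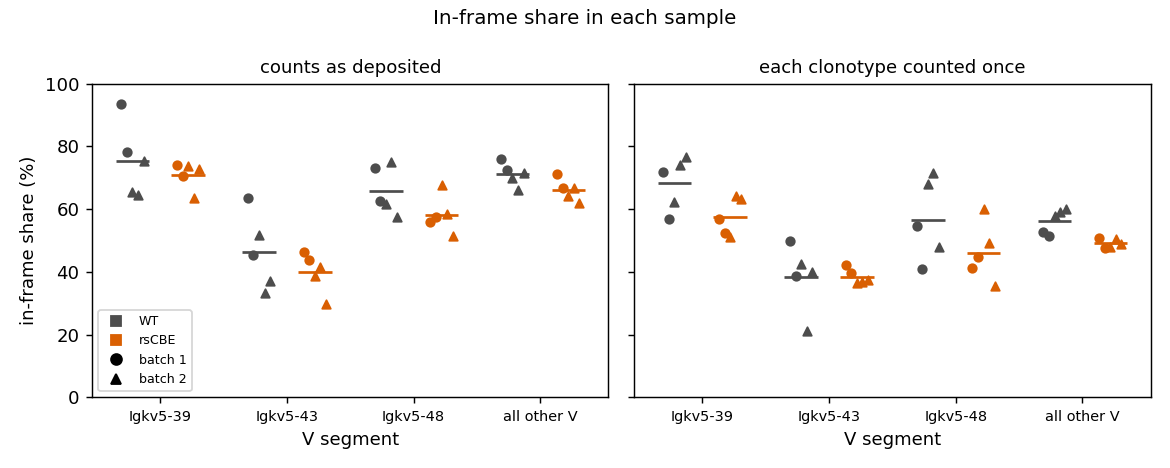
In-frame share (vertical axis, percent) of 3 Igkv5 segments and of all other V segments in each sample, with the counts as deposited (left) and with each clonotype counted once (right); lines are group means. Igkv5-43 lies between 29.9 and 63.7% on the left, and all other V segments between 62.1 and 76.1%.

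The in-frame share of the members did not differ detectably between genotypes. It was lower in rsCBE by 4.43 percentage points for Igkv5-39, 6.28 for Igkv5-43 and 7.71 for Igkv5-48 (exact permutation tests, adjusted p = 0.774, 0.662 and 0.410). Of 66 V segments, 0 were called (0%) and 10 had an unadjusted p under 0.05, while the median over all of them was -5.43 percentage points. With the counts as deposited the sign for Igkv5-39 rested on WT replicate 1, since without it the difference was 0.109. The difference for Igkv5-39 with each clonotype counted once was -10.8 percentage points (exact permutation test, adjusted p = 0.279), and it was -9.83 in batch 1 and -11.5 in batch 2. On that scale it was 0.0676 for Igkv5-43, of the opposite sign, and -10.4 for Igkv5-48 (exact permutation tests, unadjusted p = 0.992 and 0.190).

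The low in-frame share of Igkv5-43 went with 1 CDR3 length. In this segment 34.7% of the counts had a CDR3 of 27 bases and 30.5% one of 28 bases (means of 10 samples). In all other V segments the values were 52.9 and 4.91%. The 28-base share of Igkv5-43 ran from 15.5 to 46.4%, above the highest value of the other V segments, 5.72%, in every sample. Igkv5-48 had 37.1% at 27 bases, 19.9% at 28 and 16.8% at 30, and Igkv5-39 had 64.9% at 27 bases and 3.12% at 28. All WT samples of Igkv5-48 had a 27-base share of 36.8 to 51.1%, and the rsCBE samples lay below them at 26.6 to 36.4%, which was so for 2 of 66 V segments (3.03%). That comparison was chosen after its values were seen and was not tested. These lengths are part of the reading frame, so they describe the same joints as the in-frame share.

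**Figure D3:**
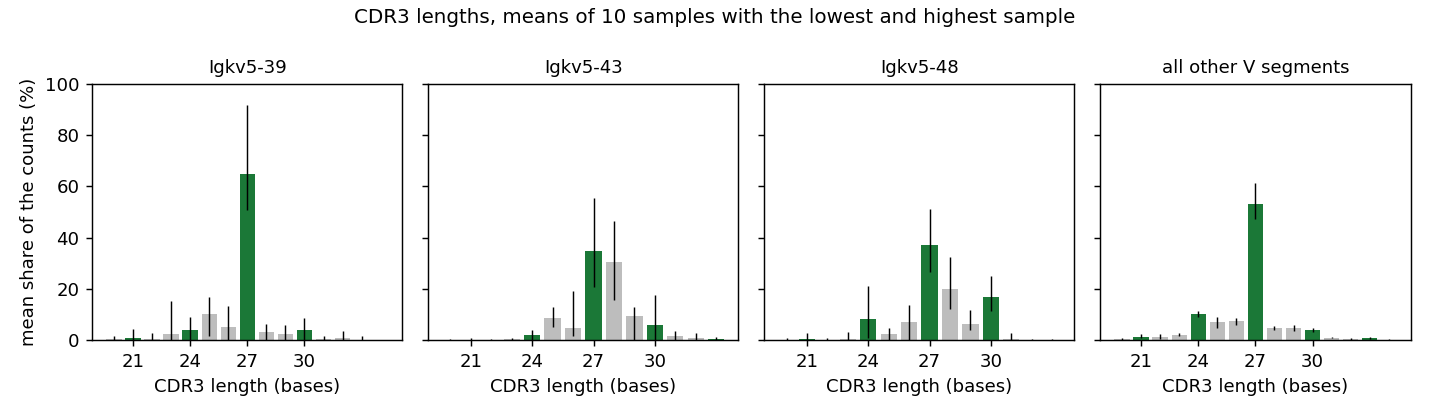
Mean share of counts (vertical axis, percent) by CDR3 length in bases for 3 Igkv5 segments and all other V segments over 10 samples, with bars from the lowest to the highest sample; green marks multiples of 3. Igkv5-43 has 30.5% at 28 bases, where all other V segments have 4.91%.

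At the joint, Igkv5-43 and Igkv5-48 often kept the whole V end. All 23 germline bases were present in 24.6 to 52.0% of the Igkv5-43 counts and 19.2 to 57.3% of the Igkv5-48 counts, against 0 to 18.5% for Igkv5-39. In the other V segments with a readable germline end the share was 17.4 to 18.7%. A base that both ends could supply was given to the V segment, so these are upper values. Joints without added bases made up 78.6% of Igkv5-43, 80.3% of Igkv5-39 and 66.1% of Igkv5-48, and 81.8% of all other V segments. The trimming of Igkv5-43 also differed by sample group: the untrimmed share was 33.6, 43.4, 28.3, 24.6 and 40.1% in WT and 45.5, 48.0, 45.0, 52.0 and 49.2% in rsCBE, with no overlap. Among 64 V segments with enough counts, this was the 1 segment whose rsCBE samples were all above the WT samples (1.56%). Within J5 joins the Igkv5-43 values were 11.8 to 49.9% in WT and 50.3 to 56.0% in rsCBE, and within the remaining joins they overlapped, at 12.8 to 43.5% and 38.0 to 47.5%. Within out-of-frame joints they were 28.9 to 56.0% in WT samples and 56.9 to 63.9% in rsCBE samples, and within in-frame joints they overlapped, at 13.3 to 28.3% and 25.9 to 35.4%. How many other V segments separate within such subsets of joins was not counted. The comparison of untrimmed shares was chosen after its values were seen and was not tested.

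Igkv5-43 and Igkv5-39 were joined to J5 more often than the remaining V segments were, over the 10 samples. J1 held 9.91% of the Igkv5-43 counts, 16.8% of the Igkv5-39 counts and 9.33% of the Igkv5-48 counts over all samples, and 29.0% of the counts of all other V segments. J5 held 50.7, 46.6 and 44.2% in the 3 members and 32.9% outside the family. Tested against every other segment, the other members included, Igkv5-43 was 17.4 percentage points higher in J5 share, and higher in all 10 samples (exact permutation test over sign changes, adjusted p = 0.00516). Igkv5-39 was 13.0 above, in 9 of 10 samples (exact permutation test, adjusted p = 0.0121), and Igkv5-48 was 10.4 above, also in 9 of 10 samples (adjusted p = 0.10). Higher J5 shares were called for 20 of 66 V segments (30.3%). Counting each clonotype once, the excess was 9.33 percentage points for Igkv5-43, 13.6 for Igkv5-39 and 6.38 for Igkv5-48 (exact permutation tests, adjusted p = 0.0123, 0.00806 and 0.136), where higher shares were called for 13 of 66 (19.7%). Without WT replicate 4 the value of Igkv5-48 was 15.1 (exact permutation test, adjusted p = 0.00737), where higher shares were called for 26 of 66 segments (39.4%). In WT samples alone Igkv5-43, Igkv5-39 and Igkv5-48 were 15.8, 15.5 and 3.98 percentage points above the others, and in rsCBE samples alone 19.0, 10.5 and 16.8. With 5 samples the smallest p is 0.0625, so neither group alone could give a call.

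With the counts as deposited, the mean J5 share of each of the 3 tested members was higher in rsCBE, and no member passed the test. For Igkv5-48 the J5 share was 31.3, 37.4, 36.1, 3.85 and 54.4% in WT replicates 1 to 5. In rsCBE it was 54.5, 54.5, 57.8, 50.3 and 62.1%. WT replicate 5 alone lay within the rsCBE range. WT replicate 4 was far below the rest, with 52 counts in 14 clonotypes and 75.0% of the counts on J2. The difference was 23.2 percentage points (exact permutation test, p = 0.0159, adjusted p = 0.0748). Without WT replicate 4 it was 16.0 (adjusted p = 0.0374) and without WT replicate 5 28.6 (adjusted p = 0.0437).

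For Igkv5-43 the J5 share was 36.1, 40.2, 43.7, 59.6 and 40.1% in WT. It was 54.5, 58.9, 56.8, 53.2 and 64.1% in rsCBE, so that 4 of 5 WT samples were below every rsCBE sample and WT replicate 4, with 57 counts of this segment, was not. The difference was 13.5 percentage points (exact permutation test, p = 0.0397, adjusted p = 0.101), and without WT replicate 4 17.5 (adjusted p = 0.0308). For Igkv5-39 the shares overlapped, at 33.0 to 57.3% and 30.1 to 59.7%, and the difference was 5.65 percentage points (exact permutation test, adjusted p = 0.611). Of all 66 V segments, 0 were called (0%) with all samples and 27 had an unadjusted p under 0.05. Without WT replicate 4, the shallowest sample, 28 were called (42.4%), and without WT replicate 5 12 (18.2%). The mean J5 share was higher in rsCBE in 62 of the 66 segments. With each clonotype counted once it was higher in 59 of 66, and the differences were 16.6 percentage points for Igkv5-48, 5.41 for Igkv5-43 and -0.723 for Igkv5-39 (exact permutation tests, adjusted p = 0.150, 0.687 and 0.925).

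**Figure D4:**
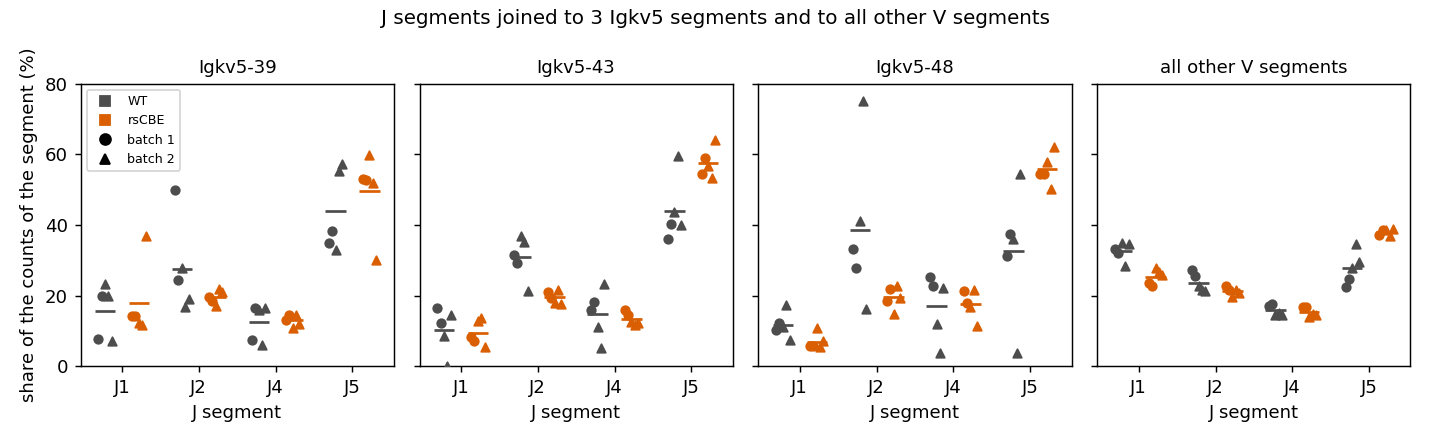
Share of the counts of a V segment (vertical axis, percent) that were joined to J1, J2, J4 or J5, for 3 Igkv5 segments and all other V segments, by sample and genotype with group means. J5 holds 50.7% of Igkv5-43 on average and 32.9% of the others; J3, a pseudogene, is not drawn.

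As shares of the whole repertoire, 12 V-J pairs of the family were tested among 270. With the genotype alone in the model, 0 pairs were called by edgeR (0%) and 25 had an unadjusted p under 0.05, 2 of them of the family, while DESeq2 called 3 and none of the family. Joins of Igkv5-43 to J5 held 1.66, 1.97, 1.01, 1.09 and 0.841% of all counts in WT and 2.51, 3.10, 1.59, 1.29 and 1.66% in rsCBE. Over both batches the groups overlapped. The log2 fold change was 0.62 ± 0.34 (adjusted p = 0.546, edgeR). With batch as a term it was 0.63 ± 0.13 (adjusted p = 0.0143, edgeR), where 7 of 270 pairs were called (2.59%), and with the replicate block 0.63 ± 0.14 (adjusted p = 0.0510).

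The call with the batch term depended on single samples. When each sample was left out in turn, the log2 fold change of Igkv5-43 with J5 lay between 0.58 and 0.68 and the adjusted p (edgeR) ran from 0.00415 to 0.156. It was over 0.05 without WT replicate 1 (0.0694), WT replicate 2 (0.0530), rsCBE replicate 2 (0.156) or rsCBE replicate 3 (0.0570). In the same runs the number of pairs called fell from 7 to 0 without any one of these 4 samples and was 28 without WT replicate 4. With each clonotype counted once and the genotype alone in the model, the log2 fold change was 0.17 ± 0.25 (adjusted p = 0.725, edgeR). The value was 0.63 in batch 1 alone (adjusted p = 0.0195, where 35 of 285 pairs were called, 12.3%) and 0.63 in batch 2 alone (adjusted p = 0.588), both by edgeR.

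Joins of Igkv5-48 to J5 held 0.382, 0.486, 0.593, 0.0643 and 0.404% in WT and 0.681, 0.682, 0.712, 0.639 and 0.661% in rsCBE, with no overlap. Of 270 pairs, 7 had every rsCBE sample above every WT sample (2.59%). The log2 fold change was 0.75 ± 0.36 (adjusted p = 0.503, edgeR) and with batch as a term 0.72 ± 0.31 (adjusted p = 0.204). Joins of Igkv5-48 to J2 had a log2 fold change of -1.18 ± 0.46 (adjusted p = 0.459, edgeR), and -1.45 to -0.73 over omitted samples. They held 1.25% in WT replicate 4 and 0.120 to 0.673% in the other WT samples. Joins of Igkv5-39 to J2 had -1.48 ± 0.59 (adjusted p = 0.459, edgeR). For Igkv5-39 with J2 the value was -0.18 without WT replicate 1, and in batch 1 alone, which holds that sample, -1.92 (adjusted p = 0.0195, edgeR). Joins of Igkv5-43 to J1 were also called in batch 1 alone, at -0.85 (adjusted p = 0.0413, edgeR), and had 0.57 in batch 2 alone. The median over the 12 pairs was -0.304, and 3 of the 12 were above 0, compared with 131 of all 270. Without WT replicate 1 the median was 0.0172 and 6 of the 12 were above 0.

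Splitting the pairs by reading frame, a comparison added after the data were seen, gave a larger J5 difference for the out-of-frame than for the in-frame joints of Igkv5-43. Out-of-frame joins of Igkv5-43 to J5 held 0.602, 1.13, 0.680, 0.579 and 0.546% of all counts in WT and 1.47, 1.86, 1.12, 0.794 and 1.19% in rsCBE. In-frame joins held 1.06, 0.841, 0.326, 0.515 and 0.295% in WT and 1.05, 1.24, 0.465, 0.499 and 0.463% in rsCBE. The out-of-frame groups overlapped through WT replicate 2 and rsCBE replicates 3 and 4, and the in-frame groups overlapped widely. With the genotype alone the out-of-frame log2 fold change was 0.86 ± 0.34 (adjusted p = 0.416, edgeR), with batch as a term 0.85 ± 0.19 (adjusted p = 0.0277) and with the replicate block 0.88 ± 0.18 (adjusted p = 0.0304). For in-frame joins it was 0.28 ± 0.43 (adjusted p = 0.899, edgeR) and with batch as a term 0.34 ± 0.20 (adjusted p = 0.429). When each sample was left out in turn with the batch term, the out-of-frame value lay between 0.70 and 0.99 and the adjusted p (edgeR) ran from 0.0218 to 0.264. It was under 0.05 in 2 of the 10 runs, without WT replicate 4 or without rsCBE replicate 4, and over it without any other sample. The difference between the frames was not tested, and the split by frame was not run with each clonotype counted once.

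Out-of-frame joins of Igkv5-48 to J5 held 0.114, 0.182, 0.188, 0 and 0.142% of all counts in WT, where the 0 is the shallowest sample. They held 0.328, 0.339, 0.246, 0.330 and 0.360% in rsCBE. The groups did not overlap, which was so for 12 of 366 pairs split by frame in this direction (3.28%). The log2 fold change was 1.23 ± 0.46 (adjusted p = 0.372, edgeR) and with batch as a term 1.21 ± 0.42 (adjusted p = 0.138). Without WT replicate 4, the sample at 0, the latter adjusted p was 0.0440 (edgeR), where 29 of 410 pairs split by frame were called (7.07%). Of 366 pairs split by frame, 0 were called with the genotype alone (0%; 36 at an unadjusted p under 0.05), 4 with batch as a term (1.09%) and 1 with the replicate block (0.273%), which was Igkv5-43 with J5 out of frame. Out-of-frame joins of Igkv5-39 to J5 held 0.211, 0.215, 0.261, 0.675 and 0.186% of all counts in WT and 0.444, 0.438, 0.203, 0.302 and 0.154% in rsCBE. The means were 0.309 and 0.308%, and rsCBE was higher by 0.228 percentage points in batch 1 and differed by -0.154 in batch 2. The log2 fold change was 0.10 ± 0.44 (adjusted p = 0.983, edgeR), and for its in-frame joins to J5 -0.43 ± 0.54 (adjusted p = 0.862). Over omitted samples the in-frame value ran from -0.69 to 0.31. These in-frame joins held 1.98% of all counts in WT replicate 1 and 0.188 to 0.687% in the other WT samples. In all other V segments together, out-of-frame J5 joins held a mean of 8.40% of all counts in WT and 13.6% in rsCBE, and in-frame ones 17.4 and 21.9%. These sums were not tested.

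**Figure D5:**
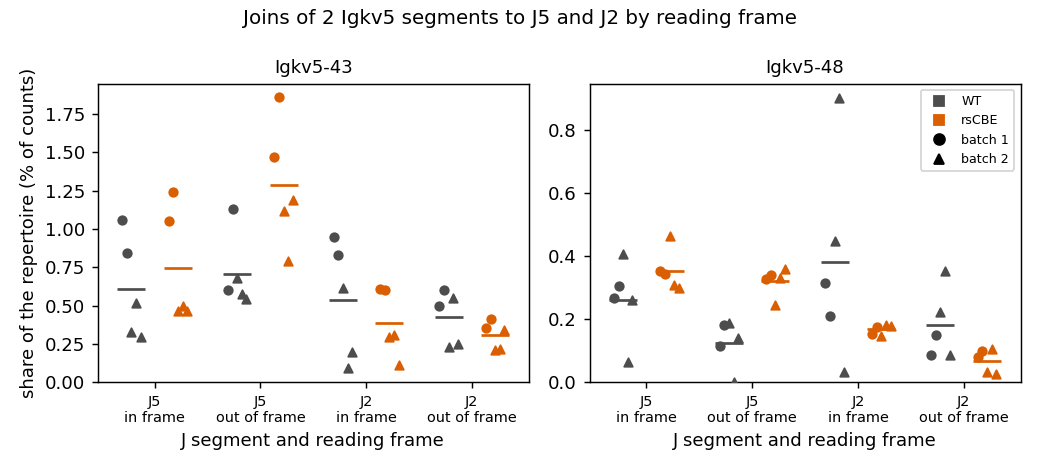
Share of all counts (vertical axis, percent) held by in-frame and out-of-frame joins of Igkv5-43 and Igkv5-48 to J5 and J2 in each sample, with group means. Out-of-frame J5 joins of Igkv5-48 lie between 0 and 0.188% in WT and between 0.246 and 0.360% in rsCBE.

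A few joints made up much of the family in every mouse sample. Of 1689 Igkv5 clonotypes, 16 were found in all 10 samples and held 40.1% of the family's counts, and 1328 were found in 1 sample. Of 22309 clonotypes of other V segments, 172 were found in all 10 samples and held 31.4% of the counts. Igkv5-43 had 8 such joints with 39.0% of its counts, all without added bases and 3 of them in-frame. Igkv5-39 had 5 with 55.7% of its counts, 4 of them in-frame, and Igkv5-48 had 3 with 15.2%. For Igkv5-37 no joint was found in all 10 samples, at 131 counts. Its 2 most recurrent in-frame joints were each found in 5 samples, cttcaaggttacagcacaccATTCACG with J4 with 18 counts and cttcaaggttacagcacaccGTACACG with J2 with 6.

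The most abundant Igkv5-43 joint was the 28-base out-of-frame joint with J5, caacagagtaacagctggcctcaTCACG, with 611 counts. It held 0.180, 0.374, 0.224, 0.0322 and 0.295% of all counts in WT and 0.594, 0.661, 0.361, 0.197 and 0.343% in rsCBE. The groups overlapped, and the log2 fold change was 0.90 ± 0.48 (adjusted p = 0.840, edgeR). The same 28 bases were also listed with J4, with 111 counts, a mean of 0.0839% in WT and 0.0550% in rsCBE, since the last 5 bases of J4 and J5 are the same.

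The 25-base joint, caacagagtaacagctggcctcaCG, had 4 bases that both ends could supply and a mean of 0.129% in WT and 0.240% in rsCBE (log2 fold change 0.84 ± 0.45, adjusted p = 0.840, edgeR). The in-frame joint of Igkv5-43 with J5, caacagagtaacagctggccGCTCACG, had 0.219% in WT and 0.205% in rsCBE (-0.06 ± 0.51, adjusted p = 0.977, edgeR). A second in-frame joint, caacagagtaacagctggcctcTCACG, had 0.181 and 0.165% (-0.14 ± 0.53, adjusted p = 0.966, edgeR). Of 263 clonotypes tested, 21 were of the family, and 0 were called by edgeR (0%; 14 at an unadjusted p under 0.05, 1 of them of the family), while DESeq2 called 2 and none of the family.

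For Igkv5-39 the in-frame joint with J2 had a log2 fold change of -1.98 ± 0.70 (adjusted p = 0.568, edgeR), with WT replicate 1 as its high sample. The in-frame joint of Igkv5-39 with J5 had -0.49 ± 0.70 (adjusted p = 0.962, edgeR), and the out-of-frame joint caaaatggtcacagctttcctcACG 0.18 ± 0.50 (adjusted p = 0.966). The in-frame joint of Igkv5-48 with J2, caacaaagtaatagctggccGTACACG, had means of 0.164 and 0.0597% (-1.36 ± 0.71, adjusted p = 0.840, edgeR). The in-frame joint of Igkv5-48 with J5 had 103 counts, with means of 0.0424% in WT and 0.0803% in rsCBE, and did not pass the filter on low counts.

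Across the 10 samples, the V segments whose share moved most like that of the summed family were Igkv1-117, Igkv14-111 and Igkv19-93. Their root mean square difference from it, on centred log2(percent + 0.01) values, was 0.25, 0.25 and 0.26, with a median of 0.65 over 90 segments compared. All 3 were higher in batch 1 than in batch 2, at 2.97 and 1.80%, 1.34 and 0.811%, and 5.51 and 3.62%. Segments of other families numbered from 35 to 50, a range that runs slightly past the members on both sides, were 8, of which 7 were tested for share and 0 were called with the genotype. For in-frame share against the rest, 5 of these neighbours were tested, 1 was called higher and 0 lower, with values from -12.8 to 9.66 percentage points. Igkv18-36, one of those with too few counts for that test, had a mean in-frame share of 33.8%, below that of Igkv5-43. For J5 share against the rest, 1 of 5 was called higher and 1 lower. For J5 share by genotype, 0 of these 5 were called and 3 had an unadjusted p under 0.05 (exact permutation tests). Their median difference was 14.7 percentage points, with values from 4.13 to 15.1.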

How the data were processed

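Kappa transcripts were amplified from RNA of sorted cells and sequenced in paired reads of 151 bases, per the labels' protocols. The authors deposited 1 table with whole-number counts per V call, J call, CDR3 and library (49079 lines, 49 of them duplicates that were merged), with no normalization. The segment caller and the read filters are not given in the sources used here, and the submitters' processing notes name the build mm10. The 16 libraries were added up to 10 samples.

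Shares of V segments, V-J pairs and clonotypes were tested with edgeR 4.0.16 (quasi-likelihood, library size as total count, factors of 1, filterByExpr), with DESeq2 1.42.0 as an alternative, and adjusted over the whole table. Shares within a segment were tested by two-sided exact permutation (5 against 5 samples, smallest p 0.00794, or sign changes over 10 samples) in the 66 V segments with at least 10 counts in every sample. The pipelines were tested on simulated data. Within-segment J5 and in-frame shares were recomputed with other count minimums, and other scalings, filters, batch terms and omitted samples were tried.

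Same-numbered samples had correlations in V share of r = 0.80, 0.79, 0.63, 0.13 and 0.37 over 93 segments. The best match had the same number for replicates 1 and 3 alone. The replicate block was an alternative, and the main fits and tests were unpaired. Within batches r was 0.12, 0.12, 0.19, -0.25 and -0.23, so the numbers follow the batches and are not shown to pair the samples.

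Named were the 5 members, their pairs past a test and further pairs with J5 or J2 that were chosen after their values were seen. Joints came from a list of the 2 in-frame and 1 out-of-frame joints per member found in most samples with the highest mean share. Joints found in all 10 samples were added to that list, and not all listed joints are printed. The members and lists were chosen with earlier results of these data known. Germline ends and positions came from GENCODE M21.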

Additional observations from a re-analysis of the deposited data

Results flagged for a closer look

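Of 38 groups of 5 samples examined for the members' share, in-frame share and J shares, 4 had 1 sample far from the rest, where chance gives about 1 in 20 groups (1.90 here). Igkv5-39 held 6.26% of the counts in WT replicate 1, and 1.20 to 2.35% in the other WT samples. In rsCBE replicate 5, J1 held 36.8% of the 133 Igkv5-39 counts and J5 30.1%, while the other rsCBE samples had 11.8 to 14.3% and 51.9 to 59.7%. Both values describe the same counts. Igkv5-48 held 1.06% in rsCBE replicate 5, the lowest of its group, and 1.23 to 1.27% in the rest.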

How the results depend on the processing

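For V segment share, 0 segments were called with all samples, 2 with a batch term and 1 with the replicate block, and 0 when any sample was left out. For V-J pairs, 0 were called, 3 by DESeq2, 7 with a batch term, 35 in batch 1 alone, 0 with the replicate block and 0 with any sample left out. With the batch term, leaving out samples gave 0 to 28 calls for pairs and 0 to 29 for pairs split by frame (both highest without WT replicate 4). Pairs split by frame gave 0, 4 with a batch term, 1 with the replicate block and 0 with any sample left out. Clonotypes gave 0, 2 by DESeq2, 0 with the replicate block and 0 with any sample left out. Leaving out samples gave 0 to 28 calls for J5 share by genotype (28 without WT replicate 4, 12 without WT replicate 5) and 0 for in-frame share. It gave 21 to 31 calls for in-frame share against other segments, 37 to 48 for J5 share against other segments and 52 to 63 for batch. With WT samples alone or rsCBE samples alone, 0 segments were called in both comparisons against other segments, where the smallest p is 0.0625. The in-frame difference of Igkv5-43 was -25.1 in WT and -26.2 in rsCBE.

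Signs reversed in results that had not passed their main test. Over omitted samples, the share by genotype ran from -0.15 to 0.70 for Igkv5-37, -0.80 to 0.00206 for Igkv5-39 and -0.03 to 0.37 for Igkv5-43, and by batch from -0.34 to 0.54 for Igkv5-37 and -0.11 to 0.13 for Igkv5-48 (log2). The in-frame difference of Igkv5-39 ran from -7.14 to 0.109. For the share by genotype these were Igkv5-37 (-0.07, -0.03, -0.15, -0.06 and -0.03 without single samples, -0.22 in batch 2 alone), Igkv5-39 (0.00206 without WT replicate 1) and Igkv5-43 (-0.03 without rsCBE replicate 2, -0.12 with each clonotype counted once). For batch they were Igkv5-37 (-0.34) and Igkv5-48 (-0.03, -0.11, -0.07, -0.00339 and -0.01), without single samples. The in-frame difference by genotype was 0.109 for Igkv5-39 without WT replicate 1, and 0.0676 for Igkv5-43 with each clonotype counted once, where the J5 difference of Igkv5-39 was -0.723. Signs of V-J pairs reversed as well. Igkv5-39 with J5 ran from -0.49 to 0.17 over omitted samples, and its in-frame joins from -0.69 to 0.31. Igkv5-43 with J1 ran from -0.85 to 0.57 over all alternatives, and further pairs that reversed are not listed. The causes were not tested. The replicate block changed no other call of a member. Depth limits Igkv5-37 (131 counts) and WT replicate 4 (3109 counts).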
